A study of Mus musculus with 4 samples.

Results

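Myosin light chains are the small subunits that wrap the lever arm of each myosin head, with an essential chain next to the motor domain and a regulatory chain behind it. In the mouse heart the ventricle uses the regulatory chain Myl2 and the essential chain Myl3, the atrium uses Myl7 and Myl4, and fast skeletal muscle uses Mylpf and Myl1. Myl9 (regulatory) and Myl6 (essential) serve smooth muscle and non-muscle myosin, and Mylk3 is the cardiac kinase that phosphorylates the ventricular regulatory chain. These 9 genes were followed here, out of 29595 rows of the table. By symbol 8 of the 9 were found, and Mylk3 was found under its older symbol D830007F02Rik through the RefSeq gene table.

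RNA came from the right ventricle of adult mice on a mixed C57BL/6 background. The Ezh2-deficient group held mutant 1 and mutant 3, and the wild-type group held wild type 1 and wild type 2, so there were 2 hearts a group. Ezh2 is the histone methyltransferase of Polycomb repressive complex 2. The sources used here do not give the allele, the cells that lack Ezh2 or the exact age. By the protocol cited in the labels, libraries were made from polyadenylated RNA and treated with a duplex-specific nuclease, which removes part of the most abundant sequences. Levels of different genes are therefore not proportional to their RNA, and folds of very abundant genes such as Myl2 may be compressed.

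The libraries held 18177642 to 23853394 reads in the table. Mitochondrially encoded rows took 40.3% and 47.3% of them in the mutants, against 34.7% and 41.2% in wild-type hearts. The hearts differed in sex along with genotype. Reads of Y-linked Ddx3y numbered 754 and 659 in the mutants, against 2 and 2 in wild-type hearts, so genotype and sex cannot be told apart in any value below. The Ezh2 row had 73 and 70 reads in the mutants, against 77 and 67 in wild-type hearts, and since the deleted part is not stated this whole-gene count does not check the labels. All 10 genes on a fixed list of ventricular muscle markers, Irx4 among them, were read in all 4 libraries. The 4 libraries include no atrium, so these reads do not tell ventricular from atrial muscle. Levels are CPM, read counts scaled to a common library size after TMM normalisation, and fold changes are Ezh2-deficient over wild type. In bulk RNA a change in the number of cells of a type cannot be told from a change in RNA per cell.

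All 9 genes passed the filter on low counts, and 8 of them had a log2 fold change above 0. None of the 9 passed edgeR's quasi-likelihood test at an adjusted p under 0.05 over 16128 rows, where 0.13% of rows passed. Without adjustment 6 of the 9 (Myl1, Myl2, Myl4, Myl7, Mylpf and Myl9) had p under 0.05, all with a log2 fold change above 0. Over all tested rows 6.49% were higher and 4.38% lower by that measure. For Mylpf, 1 of these 6, the groups overlapped, as mutant 3 lay below wild type 1. DESeq2 called 2, Myl1 and Myl2, against 1.18% of the rows it tested, and limma-voom called 0, against 0.0868%. With library totals in place of TMM edgeR called Myl1 and Mylpf, 2 of the 9, against 0.967% of rows. With no filter it called Myl1, Myl4, Myl7 and Mylpf, 4 of the 9, against 1.44%. Both mutants lay above both wild types for 7 of the 9, which held for 22.3% of tested rows. Scaling by library totals alone left 5 of the 9, against 8.49% of rows, because Myl3 and Myl6 then overlapped. The median log2 fold change was 0.87 over the 9 genes and 0.00460 over all tested rows. Scaling by library totals moved the median of all rows to -0.28, so directions are relative to that of most genes. P-values measure only the spread between these 4 hearts. The 9 genes and all lists were chosen with earlier results of these data known. Counts set beside a share of all rows, here and below, are therefore descriptions and do not test the set.

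**Figure D1:**
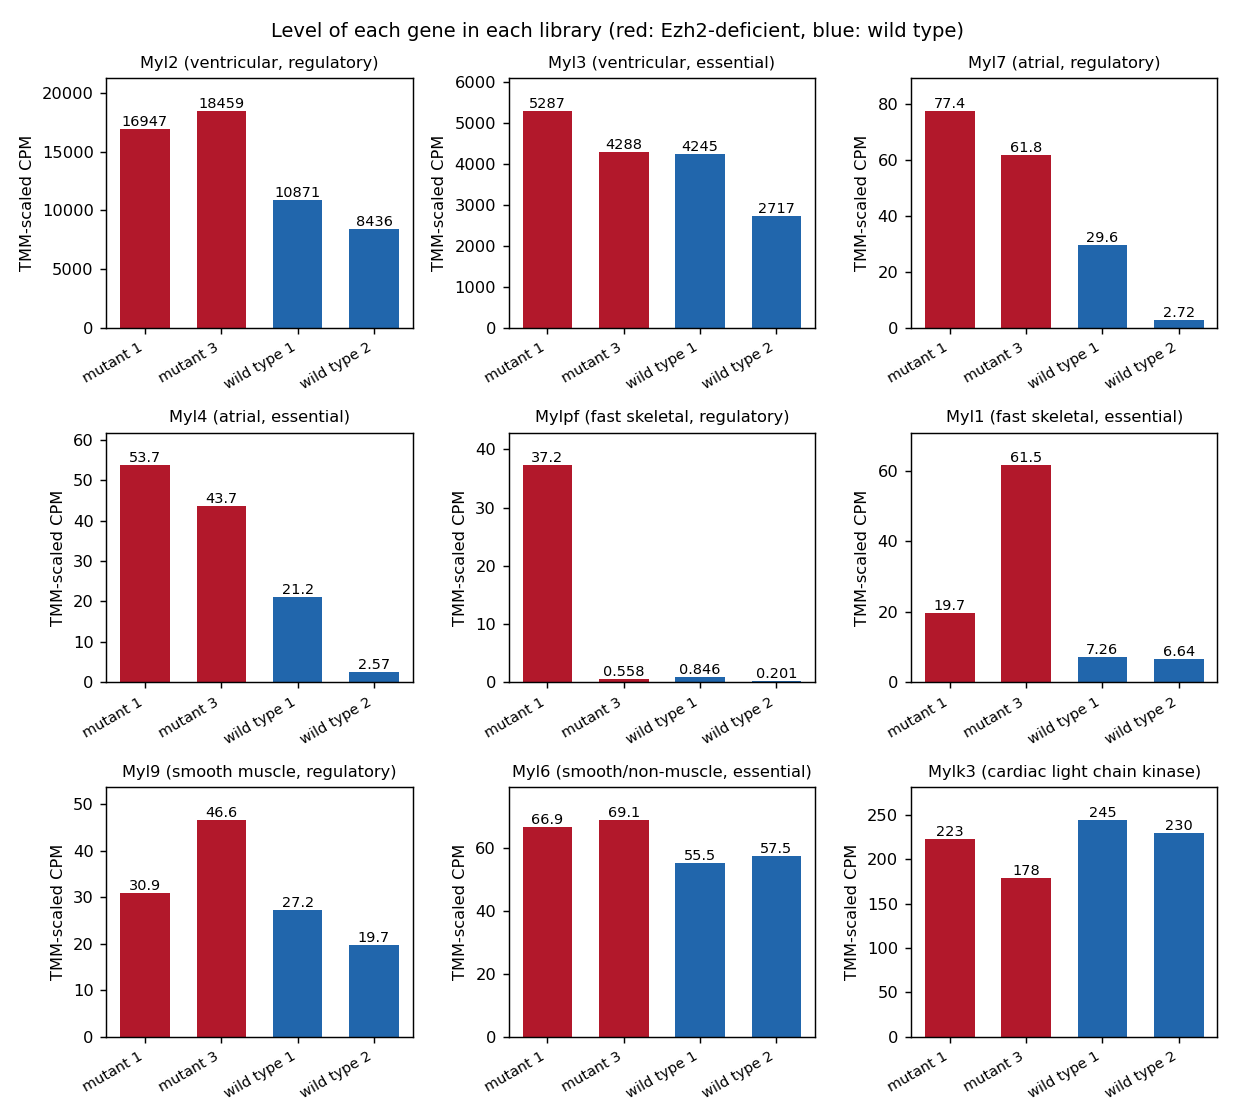
Bars give the TMM-scaled CPM of each of the 9 genes in each library, on a linear axis from 0, with the Ezh2-deficient libraries in red and the wild-type libraries in blue. Mylpf stands at 37.2 CPM in mutant 1 and under 1 CPM in the other 3 libraries, while Myl7 and Myl4 run down from mutant 1 to wild type 2 in the same order.

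The ventricular pair was by far the most abundant. Myl2, whose phosphorylation tunes ventricular force (chromosome 5, 122550989 to 122556863 on mm9), was at 16947 and 18459 CPM in the mutants, against 10871 and 8436 CPM in the wild types. Both mutants lay above both wild types, and the 4 ratios of a mutant to a wild type ran from 1.56 to 2.19. The log2 fold change of Myl2 was 0.87 ± 0.33 (SE, n = 2 each, 95% interval 0.11 to 1.64, edgeR adjusted p = 0.403, DESeq2 adjusted p = 0.0445). Without wild type 1 edgeR called it as well (adjusted p = 0.0377, range over its alternatives 0.0377 to 1.00), in a fit that called 12.2% of all rows.

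Myl3, the essential chain of the same heads (chromosome 9, 110666185 to 110672298), was at 5287 and 4288 CPM in the mutants, against 4245 and 2717 CPM in the wild types. Mutant 3 and wild type 1 were nearly equal, at a ratio of 1.01, and overlapped in order under library totals. For Myl3 the log2 fold change was 0.46 ± 0.33 (SE, n = 2 each), with a 95% interval of -0.30 to 1.22 and an edgeR adjusted p of 0.648. Without wild type 1 it was 0.82 and passed narrowly (adjusted p = 0.0477), and without wild type 2 it was 0.17. There were 3.21 and 4.30 Myl2 reads for each Myl3 read in the mutants, against 2.56 and 3.10 in the wild types, so the 2 chains did not keep a fixed ratio within either group.

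The atrial pair was read far below the ventricular pair in every library. Per kilobase of the longest coding transcript in a later annotation (GENCODE M21), Myl2 averaged 19914 CPM in the mutants and 10859 CPM in the wild types. On the same scale Myl7 averaged 118 CPM in the mutants and 27.4 CPM in the wild types, and Myl4 averaged 51.6 CPM in the mutants and 12.6 CPM in the wild types. The nuclease step acts most on abundant sequences, so these gaps are between reads, not RNA.

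Myl7, the atrial regulatory chain (chromosome 11, 5796640 to 5798785), was at 77.4 and 61.8 CPM in the mutants, against 29.6 and 2.72 CPM in the wild types. Both mutants lay above both wild types, but the wild types stood 10.9-fold apart. The 4 ratios of a mutant to a wild type thus ran from 2.09 to 28.5. Its log2 fold change was 2.10 ± 0.82 (SE, n = 2 each), with a 95% interval of 0.21 to 3.99 and an edgeR adjusted p of 0.411.

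Myl4, the atrial and embryonic essential chain (chromosome 11, 104411977 to 104448533), followed the same order over the libraries. It was at 53.7 and 43.7 CPM in the mutants, against 21.2 and 2.57 CPM in the wild types, which stood 8.24-fold apart. Myl4 had a log2 fold change of 2.03 ± 0.74 (SE, n = 2 each), with a 95% interval of 0.33 to 3.74 and an edgeR adjusted p of 0.377. A row on the other strand, AK139889, lies within Myl4 and had 27 and 22 reads in the mutants, against 17 and 26 in wild-type hearts, where Myl4 itself had 51 to 1150 over the libraries. Myl7 and Myl4 kept nearly the same proportion in 3 libraries, at 1.44 and 1.41 Myl7 reads per Myl4 read in the mutants, against 1.40 and 1.06 in wild-type hearts.

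The size of both atrial differences rested on which wild type was kept. Without wild type 2 the log2 fold change of Myl7 was 1.23 (adjusted p = 0.000298) and that of Myl4 was 1.20 (adjusted p = 0.000356). Without wild type 1 that of Myl7 was 4.68 (adjusted p = 2.74e-09) and that of Myl4 was 4.25 (adjusted p = 7.08e-09). Both genes also passed without either mutant, although the fit with all 4 libraries did not call them. Those fits called 22.0% of all rows without wild type 2, 12.2% without wild type 1, 0.381% without mutant 1 and 0.653% without mutant 3. Each assumes that a lone heart varies as the other group does. Over the 13 alternatives the adjusted p ran from 2.74e-09 to 0.858 for Myl7 and from 7.08e-09 to 0.819 for Myl4.

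Other genes that mark atrial muscle followed the pair in part. The rows with profiles closest to Myl7 over the 4 libraries were Mybphl, a relative of the myosin-binding H protein, at a distance of 0.24, then Myl4 at 0.37 and Sln, the sarcolipin gene, at 0.41. These are Euclidean distances on centred log2 CPM, where Myl7 itself spanned 4.78. For Myl4 the nearest were Myl7, then Cfd, the complement factor D gene, at 0.45 and Mybphl at 0.49. Mybphl had 91 and 57 reads in the mutants, against 38 and 1 in wild-type hearts. Sln had 202 and 144 reads in the mutants, against 102 and 4 in wild-type hearts. Cfd had 3 reads in wild type 2. At so few reads the distances of Mybphl, Sln and Cfd depend on the prior count of 2 in log2 CPM. Their order as neighbours of Myl7 and Myl4 may therefore depend on it too.

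Of the 9 atrial markers besides Myl7 and Myl4, 4 lay above and 2 below in both mutants relative to both wild types, against 22.3% and 22.4% of tested rows. The 2 lower ones were Kcna5, a potassium channel gene, at 7.09 and 10.1 CPM in the mutants, against 17.7 and 10.6 CPM in wild-type hearts, and the nuclear receptor gene Nr2f1. The 4 higher ones were Nppa, Sln, Dkk3 and Nr2f2. Of the 9 markers 1, the natriuretic peptide gene Nppa, passed the test (log2 fold change 3.52, edgeR adjusted p = 0.0316). Over all rows 0.13% passed. DESeq2 and limma-voom also called only Nppa of the 9, against 1.18% and 0.0868% of rows. Their summed level was 3378 and 3039 CPM in the mutants, against 438 and 229 CPM in the wild types, nearly all of it Nppa. Without Nppa it was 66.2 and 67.8 CPM in the mutants, against 62.6 and 55.9 CPM in wild-type hearts. Bmp10, which is restricted to atrial muscle in the adult heart, had 1 read in mutant 1 and 0 in the other 3 libraries. All the other listed markers, Nppa and Kcna5 among them, were read in every library. Whether they are restricted to the atrium was not tested. The part of atrial cells in the Myl7 and Myl4 values was not tested.

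The promoters of the atrial pair are shown because these genes ran in the same order over the libraries. Each window runs from 250 bases before to 50 bases after the RefSeq start on GRCm38.p6, 5′ to 3′ on the gene's strand. Motifs were searched on both strands. The E-box, read by basic helix-loop-helix factors, was searched as CANNTG. The site of GATA factors was searched by those 4 letters. The MCAT element of TEAD factors was searched as CATTCC. The TATA element was searched as TATAAA. The CArG box, read by serum response factor, and the MEF2 box were searched as well. Capitals mark every match, and TATA and MEF2 matches can overlap. The Myl7 window is chr11:5898733-5899032 on the minus strand and the Myl4 window is chr11:104550413-104550712 on the plus strand.
Myl7: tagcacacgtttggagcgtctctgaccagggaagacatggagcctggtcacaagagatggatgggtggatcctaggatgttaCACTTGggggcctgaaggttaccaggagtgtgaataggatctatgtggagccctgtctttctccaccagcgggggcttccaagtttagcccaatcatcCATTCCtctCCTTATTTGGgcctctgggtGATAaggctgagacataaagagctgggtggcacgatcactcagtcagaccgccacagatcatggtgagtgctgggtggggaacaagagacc
Myl4: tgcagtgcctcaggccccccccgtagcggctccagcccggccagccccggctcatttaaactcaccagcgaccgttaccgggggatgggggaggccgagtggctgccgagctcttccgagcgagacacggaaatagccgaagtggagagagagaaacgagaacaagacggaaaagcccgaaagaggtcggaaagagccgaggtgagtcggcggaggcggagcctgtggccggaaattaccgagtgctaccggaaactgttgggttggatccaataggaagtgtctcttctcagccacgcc
The Myl7 window held 1 E-box, 1 MCAT element, 1 CArG box and 1 GATA match, the last 3 within the 70 bases before the start. The Myl4 window held no match to any of the 6 motifs, and whether atrial Myl4 RNA starts there was not tested. The table sums reads over a whole gene, so it does not tell which start was used.

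CArG boxes stood in the promoter windows of 4 of the 9 genes, which have 12 windows between them, against 1.63% of all 32851 windows in the RefSeq table. They are printed with 10 bases on either side and the box in capitals, from Myl3 (chr9:110763583-110763612, plus strand), Myl7 (chr11:5898824-5898853, minus), Myl6 (chr10:128493040-128493069, minus) and Myl9 (chr2:156775293-156775322, plus).
Myl3: gagccaatgcCCTTTTATGGccctgtccct
Myl7: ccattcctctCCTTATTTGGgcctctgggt
Myl6: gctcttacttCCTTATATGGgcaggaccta
Myl9: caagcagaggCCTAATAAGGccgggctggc
The 4 genes with a box had log2 fold changes of 0.46 (Myl3), 2.10 (Myl7), 0.27 (Myl6) and 0.72 (Myl9). Those without a box ran from -0.24 (Mylk3) to 5.13 (Mylpf). Whether a box bears on these values was not tested. E-boxes stood in 8 of the 9 genes and in 72.3% of all windows, and GATA in 7 of the 9 and in 57.9%. MCAT stood in 4 of the 9 and in 14.7% of windows, the TATA element in 2 and in 13.6%, and the MEF2 box in 0 and in 3.19%. A gene with several windows was counted if any of them held a match. Counts of genes can exceed shares of single windows for that reason alone, so the 2 are not on the same scale.

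**Figure D2:**
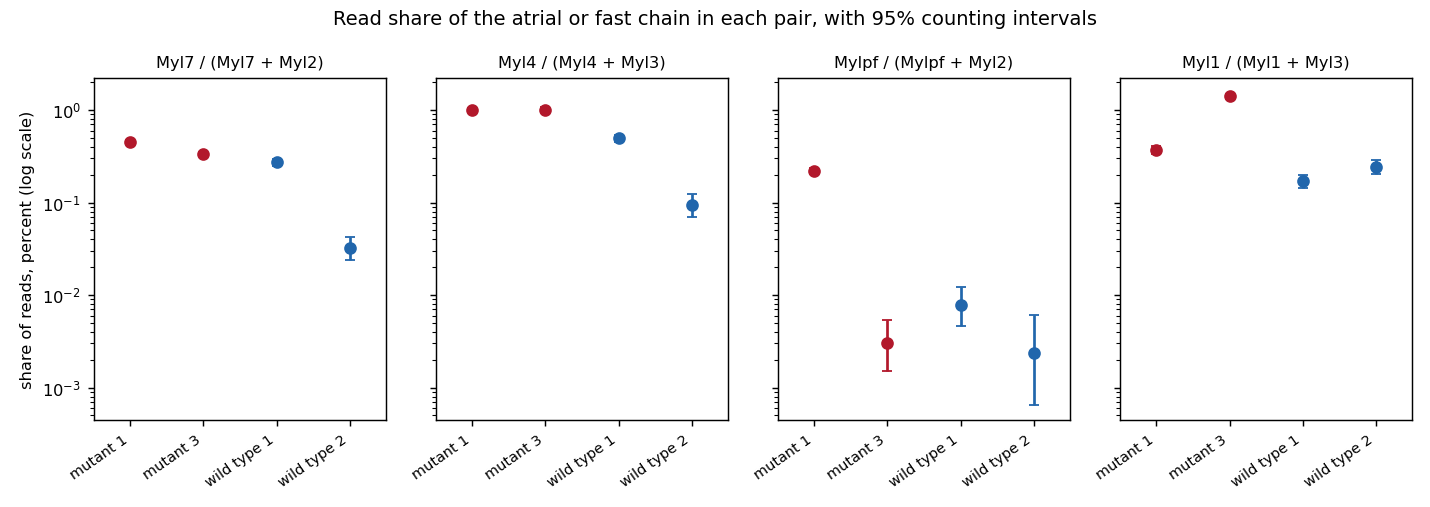
Points give the percentage of reads, on a log axis, that the atrial or fast skeletal chain took within its pair in each library, with exact 95% counting intervals. The Myl4 share sits at 1.00% and 1.01% in the mutants and at 0.496% and 0.0943% in the wild types.

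A share within a pair of chains does not depend on scaling between libraries. Of the Myl7 and Myl2 reads, Myl7 made up 0.454% (0.433 to 0.477, the exact 95% Clopper-Pearson bounds) and 0.333% (0.315 to 0.353) in the mutants. It took 0.272% (0.251 to 0.293) and 0.0322% (0.0242 to 0.0420) in the wild types. The mutants lay above the wild types, but mutant 3 and wild type 1 were close.

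For the essential chains the intervals of the mutants overlapped. Myl4 took 1.00% (0.948 to 1.06) and 1.01% (0.943 to 1.08) of the Myl4 and Myl3 reads in the mutants, and 0.496% (0.452 to 0.542) and 0.0943% (0.0702 to 0.124) in the wild types. Intervals treat the reads of a library as independent draws and leave out the spread between hearts. Reads were not marked by molecule, so repeated reads of the same molecule may make the intervals too narrow. The mean log2 ratio of Myl4 to Myl3 was higher by 2.22 in the mutants, and that of Myl7 to Myl2 by 2.05. The exact two-sided permutation test gave p = 0.333 for each, the smallest p that 2 against 2 allows, and 0.444 after adjustment over the 4 ratios. Without wild type 2 these differences were 1.03 and 0.52, and without wild type 1 they were 3.40 and 3.58.

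The fast skeletal chains differed from each other in which mutant was high. Mylpf, the fast regulatory chain (chromosome 7, 134355122 to 134357801), was read 798 and 11 times in the mutants, against 19 and 4 in wild-type hearts. That is 37.2 and 0.558 CPM in the mutants, against 0.846 and 0.201 CPM in wild-type hearts. Mutant 3 lay between the wild types, so the groups overlapped. The log2 fold change of 5.13 ± 1.57 (SE, n = 2 each, 95% interval 1.497 to 8.758, edgeR adjusted p = 0.311) rested on mutant 1. Without that heart it was 0.13 (adjusted p = 1.00), and without mutant 3 it was 6.16 (adjusted p = 2.40e-30). It also passed without wild type 1 (adjusted p = 0.0229) and without wild type 2 (adjusted p = 0.0374).

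Of the 12 fast-fibre markers 9 were higher in mutant 1 than in mutant 3, as Mylpf was, and 3 (Casq1, Mybpc2 and Mybph) were higher in mutant 3. Casq1, the skeletal calsequestrin gene, was at 19.3 CPM in mutant 1 and 39.0 CPM in mutant 3, against 14.9 and 9.56 CPM in wild-type hearts. The rows closest to the Mylpf profile were Tnnt3, the fast troponin T gene, at a distance of 1.56, Pvalb, the parvalbumin gene, at 1.84 and Tnni2, the fast troponin I gene, at 1.95, where Mylpf spanned 6.97. Tnnt3 had 1516 and 20 reads in the mutants, against 8 and 5 in wild-type hearts. The 12 fast-fibre markers summed to 362 and 117 CPM in the mutants, against 65.5 and 52.0 CPM in wild-type hearts, with 5 of 12 higher in both mutants than in both wild types, against 22.3% of tested rows. EdgeR and limma-voom called 0 of them and DESeq2 called 1, against 1.18% of rows. Of the 11 tested, 7 had a log2 fold change above 0 with p under 0.05 before adjustment, against 6.49% of rows. Among these, Tnnt3, Myh4 and Casq1 lay above both wild types in both mutants. For Tnni2, Atp2a1, Myh2 and Pvalb the groups overlapped, as mutant 3 lay below a wild type. The troponin C gene Tnnc2 was not tested. It had 759 and 3 reads in the mutants, against 2 and 0 in wild-type hearts, and is among the 5 higher in both mutants. The myogenic factors Myod1, Myf5, Myf6 and Myog summed to 0.187 and 0.254 CPM in the mutants, against 0.178 and 0.101 CPM in wild-type hearts, with Myf6 at 0 in all 4 libraries. The part of skeletal muscle cells in the Mylpf level was not tested.

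Myl1, the fast essential chain (chromosome 1, 66970872 to 66991606), had the smallest p of the 9 genes and was highest in mutant 3. It was at 19.7 and 61.5 CPM in the mutants, against 7.26 and 6.64 CPM in the wild types. Both mutants lay above both wild types, by 2.71 to 9.25 times, while mutant 3 was 3.12 times mutant 1 and the wild types differed by 1.09 times. Myl1 had a log2 fold change of 2.54 ± 0.49 (SE, n = 2 each, 95% interval 1.41 to 3.68, edgeR adjusted p = 0.138, DESeq2 adjusted p = 3.31e-06). EdgeR called Myl1 without mutant 1 (log2 fold change 3.18, adjusted p = 1.21e-10), without wild type 1 (adjusted p = 0.00161) and without wild type 2 (adjusted p = 0.00232). It did not without mutant 3, where the log2 fold change was 1.54 (adjusted p = 0.0752).

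The order of the mutants for Myl1 was thus the reverse of that for Mylpf. Myl1 took 0.371% (0.337 to 0.408) and 1.41% (1.34 to 1.49) of the Myl1 and Myl3 reads in the mutants, against 0.171% (0.146 to 0.199) and 0.244% (0.204 to 0.289) in the wild types. Mylpf took 0.219% (0.204 to 0.235) and 0.00302% (0.00151 to 0.00541) of the Mylpf and Myl2 reads in the mutants, against 0.00778% (0.00469 to 0.0122) and 0.00239% (0.000650 to 0.00611) in the wild types. The mean log2 ratio differed by 1.83 for Myl1 over Myl3 (exact permutation p = 0.333, adjusted 0.444) and by 2.45 for Mylpf over Myl2 (exact permutation p = 0.667, adjusted 0.667).

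The rows closest to Myl1 were low. They were Serpina3g, a serine protease inhibitor gene, at a distance of 0.51, the unnamed gene 6430701C03Rik at 0.51, and NR_002851, the small nucleolar RNA Snord82 in the RefSeq table, at 0.74. Myl1 spanned 3.19 on that scale. Of 50-base stretches of the Myl1 transcript, 23.4% also occur in the pseudogene Mylf-ps, so some Myl1 reads could have been placed there or lost. Of the 4 slow-fibre markers 0 were called by edgeR or limma-voom and 3 by DESeq2, against 1.18% of rows. Before adjustment 3 were higher with p under 0.05, against 6.49% of rows. The 4 summed to 150.0 and 117 CPM in the mutants, against 36.9 and 78.3 CPM in wild-type hearts. Of that sum Myh7b took 56.9 and 69.4 CPM in the mutants and 23.4 and 66.4 CPM in wild-type hearts, and its groups overlapped. The other 3 lay above both wild types in both mutants, against 22.3% of tested rows.

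**Figure D3:**
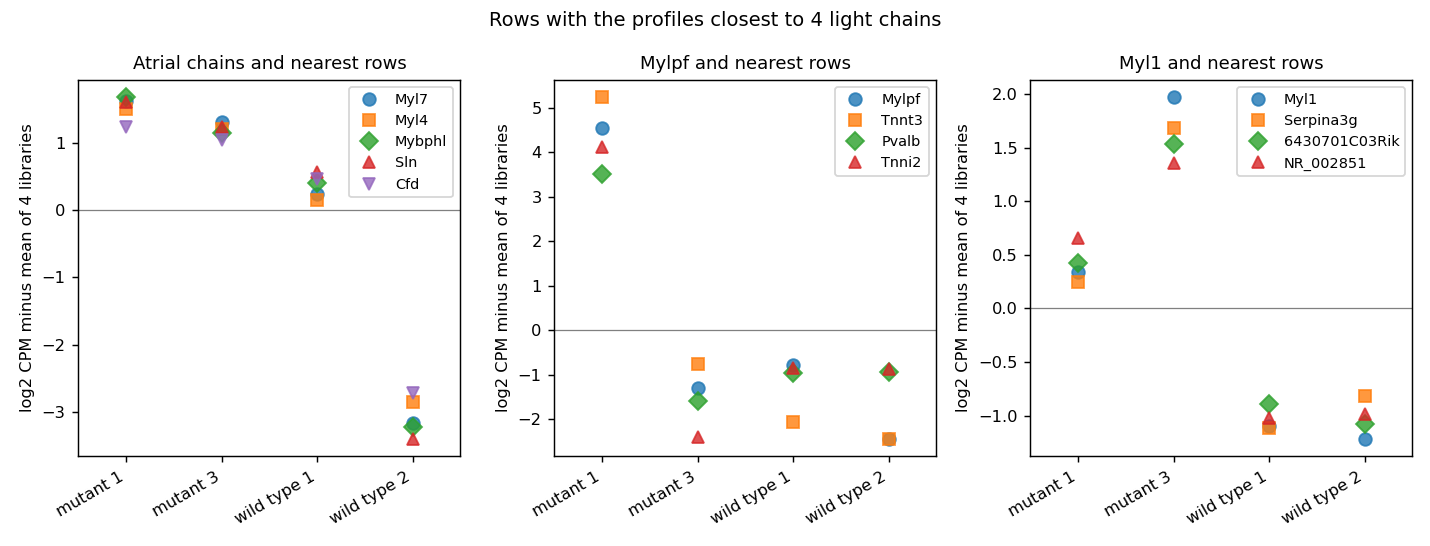
Points give log2 CPM minus the mean of the 4 libraries for Myl7 and Myl4 with their nearest rows, for Mylpf with its nearest rows, and for Myl1 with its nearest rows. The atrial chains are lowest in wild type 2, Mylpf stands apart in mutant 1, and Myl1 is highest in mutant 3.

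The chains of smooth muscle and non-muscle myosin did not pass the test with all 4 libraries. Myl9, the smooth muscle regulatory chain (chromosome 2, 156601165 to 156607393), was at 30.9 and 46.6 CPM in the mutants, against 27.2 and 19.7 CPM in the wild types. Mutant 1 was close to wild type 1, at a ratio of 1.14. For Myl9 the log2 fold change was 0.72 ± 0.28 (SE, n = 2 each), with a 95% interval of 0.08 to 1.37 and an edgeR adjusted p of 0.410. It passed without wild type 1 (adjusted p = 0.00768, range over its alternatives 0.00768 to 1.00).

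Not all of the other smooth muscle markers shared that order. Of 8, 4 were higher and 1 was lower in both mutants than in both wild types, against 22.3% and 22.4% of tested rows. Their median log2 fold change was 0.28, and none passed by any of the 3 tools. They summed to 204 and 216 CPM in the mutants, against 273 and 248 CPM in wild-type hearts, most of it Acta2 and Smtn. The smooth muscle actin gene Acta2 was at 68.6 and 66.5 CPM in the mutants, against 136 and 90.9 CPM in wild-type hearts (edgeR adjusted p = 0.348). The transgelin gene Tagln was at 15.2 and 15.7 CPM in the mutants, against 13.9 and 9.96 CPM in wild-type hearts. The part of smooth muscle cells in the Myl9 value was not tested.

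Myl6, the essential chain shared by smooth muscle and non-muscle myosin (chromosome 10, 127927917 to 127930881), was the steadiest chain within groups. It was at 66.9 and 69.1 CPM in the mutants, against 55.5 and 57.5 CPM in wild-type hearts. The log2 fold change was 0.27 ± 0.20 (SE, n = 2 each, 95% interval -0.20 to 0.73, edgeR adjusted p = 0.665), and with library totals as the scale it was -0.02. Processed copies hold 18.5% of the 50-base stretches of its transcript, so its count is less certain. Myl2, Myl3, Myl4, Myl7, Myl9, Mylpf and Mylk3 shared no such stretch with another gene's transcript in that annotation.

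Mylk3 (row D830007F02Rik, chromosome 8, 87848828 to 87904877) was the only one of the 9 with lower levels in both mutants. It was at 223 and 178 CPM in the mutants, against 245 and 230 CPM in the wild types, with mutant 1 and wild type 2 close at a ratio of 0.968. Mylk3 had a log2 fold change of -0.24 ± 0.22 (SE, n = 2 each, 95% interval -0.76 to 0.27, edgeR adjusted p = 0.727). It stayed below 0 in all 13 alternatives, from -0.51 to -0.05, and was called in none.

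**Figure D4:**
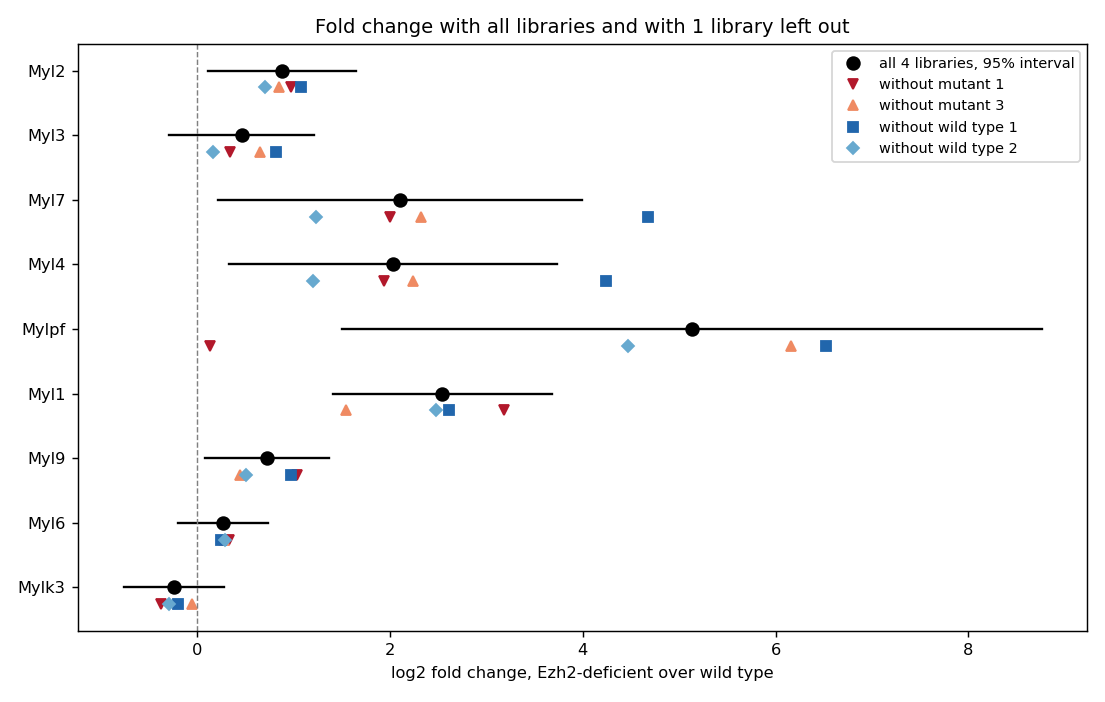
Black points and lines give the log2 fold change of each gene, Ezh2-deficient over wild type, with its 95% interval from all 4 libraries, and the coloured markers below give the value with 1 library left out. Mylpf is at 0.13 without mutant 1, and Myl7 and Myl4 run from 1.23 and 1.20 without wild type 2 to 4.68 and 4.25 without wild type 1.

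Genes that work with the light chains were examined in 5 lists, in which edgeR called no gene, with 0.13% of all rows called. Of 5 other light chains 3 were tested and 0 passed by edgeR, DESeq2 or limma-voom, with 0 at an unadjusted p under 0.05 and a median log2 fold change of 0.36. The non-muscle regulatory chain Myl12a (row 2900073G15Rik) was at 924 and 1011 CPM in the mutants, against 785 and 486 CPM in wild-type hearts. Its close relative Myl12b (row Mylc2b) was at 70.4 and 82.6 CPM in the mutants, against 68.5 and 51.0 CPM in wild-type hearts. Of the 50-base stretches of Myl12a, 29.6% also lie in Myl12b or in pseudogenes, so the split between these rows is uncertain. Myl10 had no read.

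Kinases that act on regulatory chains, with calmodulin, had 9 tested members and a median of 0.09. None passed by any of the 3 tools. Without adjustment 1 had p under 0.05 and was higher (6.49% of all rows were), Calm2, which encodes calmodulin, at 86.9 and 91.8 CPM in the mutants, against 47.6 and 62.8 CPM in wild-type hearts, with a log2 fold change of 0.69 ± 0.22 (SE, edgeR adjusted p = 0.338). The smooth muscle kinase Mylk was at 20.7 and 23.3 CPM in the mutants, against 23.7 and 22.1 CPM in wild-type hearts.

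Subunits and inhibitors of myosin phosphatase, which removes the phosphate from regulatory chains, had 6 tested members and a median of 0.13. None passed by any of the 3 tools, with 0 at an unadjusted p under 0.05. Ppp1r14c, an inhibitor of the phosphatase, was at 82.1 and 105 CPM in the mutants, against 122 and 142 CPM in wild-type hearts, with both mutants below both wild types. Ppp1r14a, another inhibitor, was at 4.29 and 5.83 CPM in the mutants, against 4.76 and 2.31 CPM in wild-type hearts.

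The heavy chains that carry these light chains were also examined. Of 8 sarcomeric heavy chains, edgeR and limma-voom called 0 and DESeq2 called 2, against 1.18% of rows, and the median was 0.91. Without adjustment 3 had p under 0.05, all with a log2 fold change above 0, against 6.49% of rows. For Myh2 among them the groups overlapped. Myh4, a fast skeletal heavy chain, was at 44.4 and 33.2 CPM in the mutants, against 9.97 and 12.0 CPM in wild-type hearts, with a log2 fold change of 1.82 ± 0.25 (SE, edgeR adjusted p = 0.0638, DESeq2 adjusted p = 2.56e-06). Myh8, the perinatal heavy chain, was at 9.80 and 2.84 CPM in the mutants, against 1.02 and 1.51 CPM in wild-type hearts. Reads of the fast heavy chains can be split among their similar copies. Of 4 non-muscle and smooth muscle heavy chains, 0 passed by any of the 3 tools, with 0 at an unadjusted p under 0.05 and a median of -0.07. Myh9 was at 132 and 127 CPM in the mutants, against 167 and 151 CPM in wild-type hearts, and both mutants lay below both wild types. Myh14 was at 68.2 and 50.5 CPM in the mutants, against 81.9 and 58.6 CPM in wild-type hearts, and the groups overlapped.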

How the data were processed

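Polyadenylated RNA of 4 right ventricles was sequenced after duplex-specific nuclease treatment, per the labels. The submitters' processing notes name build mm9, Cufflinks and TopHat 1.2.0. No source used here gives the counting rule, use of strand or annotation. The deposited table gives read counts per gene, which were the input here, and the authors' CPM, which differed from reads over library total by at most 4.96e-06. It also gives the authors' ratio between single libraries, with the authors' p-value from a test that no source used here names. Starts in the table count from 0 (13 of 13 annotated mitochondrial genes matched after adding 1) and are printed 1-based.

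The test on counts was that of edgeR 4.0.16 in R 4.3.3: filterByExpr by group, TMM, quasi-likelihood test, no covariate, Benjamini-Hochberg adjustment over 16128 rows, two-sided, with a call at an adjusted p under 0.05. Intervals use the same F statistic. Log2 ratios within a library had 1 read added, and log2 CPM for distances had a prior count of 2. No label names a batch or litter. The scripts were tested on simulated data. Alternatives were DESeq2 1.42.0, limma-voom (limma 3.58.1), other scalings and filters, and each library left out.

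The 9 genes and all lists were chosen with earlier results of these data known. The rule named all 9 genes, per pathway list the called genes or, with none called, its 2 genes of lowest p, and the 3 nearest profiles of Myl1, Myl4, Myl7 and Mylpf. Marker genes of other muscle, Ddx3y, Ezh2, Mylk, Myl10 and AK139889 are named outside it. A gene that the rule would name is not reported here. For conduction markers, 0 of 4 tested passed by edgeR, DESeq2 or limma-voom, with 0 at an unadjusted p under 0.05. Promoters came from RefSeq (9 of 9 genes matched), on another build than the table, and were not placed on mm9.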

Additional observations from a re-analysis of the deposited data

How the results depend on the processing

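Over the whole table edgeR called 21 rows, 17 higher and 4 lower. With library totals it called 156 (76 higher, 80 lower), without a filter 317, DESeq2 called 204, and leaving out 1 library gave 63 to 3675. Of the 9 light chain genes edgeR called 0. Library totals gave 2 (Myl1 and Mylpf), no filter 4 (Myl1, Myl4, Myl7 and Mylpf), DESeq2 2, and leaving out 1 library gave 3 to 7, the 7 without wild type 1. The cause of these shifts was not tested, except that a fit without a library has 1 heart in a group. The log2 fold change of Myl6 was -0.020 with library totals alone in place of TMM. The difference in the log2 ratio of Mylpf to Myl2 ran from -0.58 without mutant 1 to 5.48 without mutant 3. All other log2 fold changes of the 9 genes kept their sign in every alternative run. Mylpf was not tested with the filter of 1 CPM in 2 libraries. No paired analysis was possible because the groups share only replicate number 1. With 2 hearts a group, a gene that misses the threshold is not shown to be equal.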

Other observations

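The authors' deposited table compares single libraries. By the authors' deposited table Myl2 was 1.10 times as high in mutant 1 as in mutant 3 and 1.32 times as high in wild type 1 as in wild type 2. The authors' deposited table gives a ratio of wild type 1 to wild type 2 of 11.1 for Myl7 (authors' p = 3.74e-122) and of 8.43 for Myl4 (authors' p = 1.62e-78). For Mylpf the ratio of mutant 1 to mutant 3 in the authors' deposited table was 79.7 (authors' p = 2.07e-236), and for Myl1 it was 0.383 (authors' p = 3.77e-73). These p-values set 1 library against another and do not measure the spread between hearts.

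Of the 10 ventricular markers 1 was higher and 1 lower with p under 0.05 before adjustment, near the 6.49% and 4.38% of all rows, so the counts say nothing particular of the list. Both genes are named after their values were seen. Tnnc1, the cardiac troponin C gene, was at 3162 and 3111 CPM in the mutants, against 1795 and 1290 CPM in wild-type hearts, with a log2 fold change of 1.02 ± 0.29 (SE, edgeR adjusted p = 0.279, DESeq2 adjusted p = 0.0107). Ryr2, the calcium release channel gene, was at 794 and 666 CPM in the mutants, against 1046 and 1160 CPM in wild-type hearts, with a log2 fold change of -0.60 ± 0.24 (SE, edgeR adjusted p = 0.439). The 10 ventricular markers had a median log2 fold change of 0.09, with 0 called by edgeR or limma-voom and 1 by DESeq2, against 1.18% of rows.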
